A study of Mus musculus with 96 samples.

Results

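Cirbp and Rbm3, which encode the cold-inducible RNA binding proteins, are 2 of the 24054 genes of the count table, and both rows were found by symbol. Their levels were followed in all 96 cells, sorted by the temperature class that each cell's label gives. The cells are mouse preoptic neurons, from the part of the hypothalamus in which body temperature is sensed and regulated. Each came from a C57BL/6N mouse of 2-3 months, was recorded by whole-cell patch clamp in a fresh brain slice, was then picked with a glass pipette, and had its RNA amplified with Smart-seq2 and sequenced from a Nextera XT library. By label, 21 cells were warm-sensitive, 5 cold-sensitive and 24 insensitive. A further 10 were silent sensitive, 18 were silent insensitive, and 18 had an unknown class. Strain, age, region, recording and library preparation were the same in all of these groups, and the labels do not define "silent". No animal, slice or recording day is named, so a class counts as 1 sample, SDs are over cells, and no p-value is given. The sources used here give neither the bath temperatures nor the time a cell spent at them before it was picked.

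Cirbp and Rbm3 each encode a small protein with an RNA recognition motif followed by a glycine-rich tail. Mild cooling raises both in many mammalian cell types and heat lowers them. In mouse fibroblasts the proteins bind transcripts of circadian clock genes and affect which polyadenylation site is used, and in mouse brain Rbm3 is known for its part in the rebuilding of synapses after cooling. In the preoptic area, warm-sensitive neurons fire faster as they are warmed and insensitive neurons change their firing little.

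Total counts ran from 465167 to 3660726 per cell, and the ribosomal RNA precursor Rn45s took 53.2% of all counts. Levels are therefore given as CPM, counts per 1000000 counts outside Rn45s, on which scale 1 count was worth 0.366 to 13.6 CPM, with a median of 1.78 CPM. Outside Rn45s the median count was 314892 in warm-sensitive cells, 734507 in cold-sensitive cells, 761928 in insensitive cells, 415420 in silent sensitive cells and 362457 in silent insensitive cells. The number of genes read at all had a median of 3244 in warm-sensitive cells, 4645 in cold-sensitive cells, 4022 in insensitive cells, 3230 in silent sensitive cells and 3668.5 in silent insensitive cells. All 12 neuron markers measured, among them Snap25, Syt1 and Stmn2, had counts in every class, and each cell had at least 5 of them at 10 CPM or more. RNA of other cell types was also present: the summed level over a cell ran from 0 to 15964 CPM for 7 oligodendrocyte markers, from 17.5 to 15586 CPM for 9 astrocyte markers and from 3.07 to 53129 CPM for 10 microglia markers. The endothelial and mural markers had a median of 0 CPM in every class, and Cldn5, Ly6c1, Rgs5 and Kcnj8 of that list had no count in any cell.

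In GENCODE M21 on mm10, Cirbp lies on chromosome 10 from 80165985 to 80172786 on the plus strand, is protein-coding and overlaps no other gene. Rbm3 lies on chromosome X from 8138975 to 8145880 on the minus strand, is protein-coding and is overlapped on the other strand by the antisense gene Rbm3os, which had 1 count over all cells. The sources used here do not say whether counting used strand. Exons joined over all coding transcripts of a gene came to 1413 bases for Cirbp and 3576 bases for Rbm3, which need not be the length of the RNA present. Per kilobase of these, the mean level over the 96 cells was 62.9 CPM per kb for Cirbp and 4.52 CPM per kb for Rbm3. The RefSeq promoter table of GRCm38.p6 holds 2 windows for Cirbp and none was matched for Rbm3. In the Cirbp window at chr10:80167589-80167888 on the plus strand, a search of both strands found 1 match to the mild-cold response element TCCCCGCC, 247 bases before the start. It also found 3 matches to the GC box GGGCGG and none to the heat shock element core GAANNTTC. The second window, at chr10:80167921-80168220, held no match to TCCCCGCC and 4 to GGGCGG. Of 32851 promoter windows of the same length, 5.38% held the mild-cold response element, 35.7% the GC box and 7.86% the heat shock element core. A match describes the letters in the window and nothing about binding.

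Cirbp reached 10 CPM, the level taken here as detected, in 37 of the 96 neurons (38.5%), most of them well above that limit. It had 0 counts in 42 cells and 1 count in 15. In those 37 cells the median level was 175 CPM.

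In the 21 warm-sensitive cells the lowest and median levels of Cirbp were 0 CPM and the highest was 349 CPM, and 6 cells detected it (28.6%, exact Clopper-Pearson 95% interval 11.3 to 52.2%). Of these 6, 3 stood at 304, 328 and 349 CPM, and the others at 13.6, 15.9 and 35 CPM. The 13.6 CPM is 1 count in the shallowest cell of the series, which had 73702 counts outside Rn45s. The 5 cold-sensitive cells had 34, 0, 8.66, 0 and 260 CPM of Cirbp, so that 2 of them detected it (40%, interval 5.27 to 85.3%). In the 24 insensitive cells Cirbp ran from 0 through a median of 45.8 CPM to 584 CPM and was detected in 13 (54.2%, interval 32.8 to 74.4%). These cells fell apart into those at or below 2.05 CPM and those at 42.8 CPM or more, with none between.

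The 10 silent sensitive cells ran from 0 through a median of 0 to 30.2 CPM, and 1 detected Cirbp (10%, interval 0.253 to 44.5%). The 18 silent insensitive cells ran from 0 through a median of 0 to 434 CPM, and 7 detected it (38.9%, interval 17.3 to 64.3%), all at 78.3 CPM or more. Every class reached down to cells with 0 counts, so the classes overlapped. The silent sensitive cells had the lowest maximum.

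As log2(CPM + 1), which shrinks the differences of genes with few counts, Cirbp averaged 2.18 ± 3.03 in warm-sensitive cells (SD, n = 21), 3.29 ± 3.45 in cold-sensitive cells (n = 5) and 4.27 ± 3.62 in insensitive cells (n = 24). It averaged 1.16 ± 1.72 in silent sensitive cells (n = 10) and 3.03 ± 3.73 in silent insensitive cells (n = 18). From high to low the order was insensitive, cold-sensitive, silent insensitive, warm-sensitive and silent sensitive, and each step was smaller than the SD over cells of either neighbour. Over summed counts Cirbp came to 63.0 CPM in warm-sensitive cells, 46.2 CPM in cold-sensitive cells, 151 CPM in insensitive cells, 4.26 CPM in silent sensitive cells and 90.8 CPM in silent insensitive cells. These sums lean on single cells: without the highest cell of the class they were 36 CPM in warm-sensitive cells, 10.7 CPM in cold-sensitive cells, 113 CPM in insensitive cells, 0.915 CPM in silent sensitive cells and 60.1 CPM in silent insensitive cells. The intervals printed with the shares count each cell as a separate draw, so they do not cover differences between animals.

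**Figure D1:**
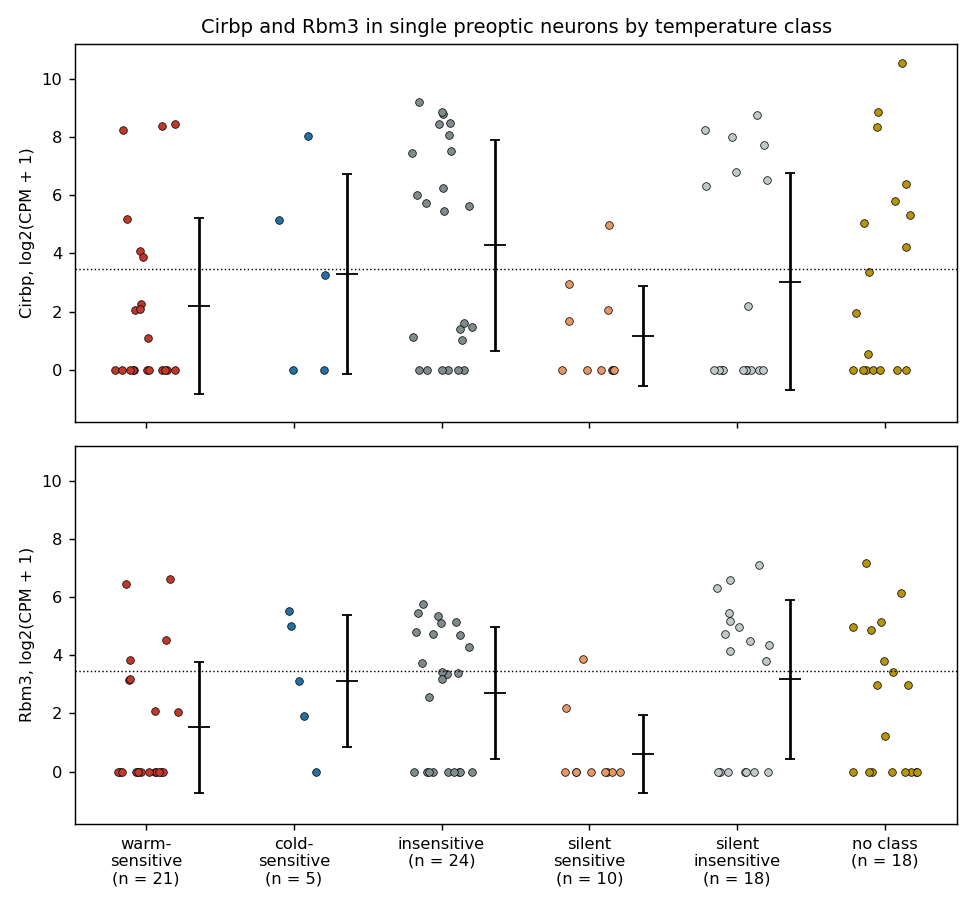
Cirbp (top) and Rbm3 (bottom) in each cell as log2(CPM + 1), 1 point per cell, spread sideways for visibility, with the mean and SD over cells to the right of each class and none for the cells with no class. The dotted line marks 10 CPM; most Cirbp points lie at the floor or well above the line, and the 10 silent sensitive cells hold the lowest set of points for both genes.

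Rbm3 was read at lower levels than Cirbp and without so clear a gap between cells with and without it. It had 0 counts in 46 of the 96 cells, reached 10 CPM in 34 (35.4%), and had at most 76 counts in a cell. In the cells that detected it, the median level was 30.9 CPM, against 175 CPM for Cirbp in the cells that detected Cirbp. Per kilobase of joined exon these medians were 8.65 CPM per kb for Rbm3 and 124 CPM per kb for Cirbp.

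In the 21 warm-sensitive cells Rbm3 ran from 0 through a median of 0 to 97.7 CPM, and 4 cells detected it (19%, interval 5.45 to 41.9%). The 5 cold-sensitive cells had 44.9, 2.80, 31.3, 7.66 and 0 CPM, and 2 detected it (40%, interval 5.27 to 85.3%). The 24 insensitive cells ran from 0 through a median of 9.43 to 53.6 CPM, and 10 detected it (41.7%, interval 22.1 to 63.4%). Rbm3 was thus found in a smaller share of the warm-sensitive than of the insensitive cells, while its highest warm-sensitive cells, at 85.7 and 97.7 CPM, lay above every insensitive cell.

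The 10 silent sensitive cells ran from 0 through a median of 0 to 13.6 CPM, with 0 counts in 8 of them, and 1 detected Rbm3 (10%, interval 0.253 to 44.5%). The 18 silent insensitive cells had the highest share of any class: their levels ran from 0 through a median of 18 to 136 CPM, and 11 detected Rbm3 (61.1%, interval 35.7 to 82.7%). The 2 silent sensitive cells with any Rbm3 stood at 3.56 and 13.6 CPM, the higher of them just above the lowest detecting silent insensitive cell, at 13.1 CPM.

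Rbm3 averaged 1.52 ± 2.24 on log2(CPM + 1) in warm-sensitive cells (SD, n = 21), 3.12 ± 2.26 in cold-sensitive cells (n = 5) and 2.71 ± 2.27 in insensitive cells (n = 24). It averaged 0.61 ± 1.34 in silent sensitive cells (n = 10) and 3.17 ± 2.73 in silent insensitive cells (n = 18). From high to low the order was silent insensitive, cold-sensitive, insensitive, warm-sensitive and silent sensitive, and neighbours again differed by less than the SD over cells of either. Both genes had warm-sensitive and silent sensitive cells in the lowest positions and differed in which class stood highest.

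**Figure D2:**
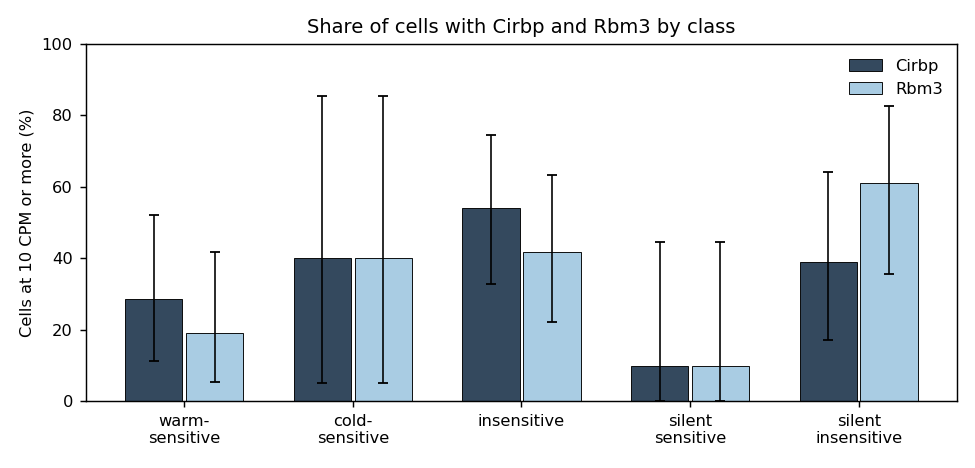
Percent of cells at 10 CPM or more of Cirbp (dark bars) and Rbm3 (light bars) in each class, with exact Clopper-Pearson 95% intervals. Silent sensitive cells reached 10% for both genes; the highest shares were 54.2% for Cirbp in insensitive cells and 61.1% for Rbm3 in silent insensitive cells, and the cold-sensitive intervals span 5.27 to 85.3%.

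Pooled, temperature-sensitive cells held both genes less often than temperature-insensitive cells. Of the 5 cold-sensitive cells in the pool, 40% detected Rbm3, beside 41.7% of the insensitive class. Their mean Rbm3 level on log2(CPM + 1) was the higher of these 2 classes (3.12 against 2.71). Cirbp was detected in 9 of 36 sensitive cells (25%, interval 12.1 to 42.2%) and 20 of 42 insensitive cells (47.6%, interval 32.0 to 63.6%). Rbm3 was detected in 7 of 36 sensitive cells (19.4%, interval 8.19 to 36%) and 21 of 42 insensitive cells (50%, interval 34.2 to 65.8%). In the sensitive cells Cirbp averaged 2.05 ± 2.80 and Rbm3 1.49 ± 2.13 on log2(CPM + 1) (SD, n = 36). In the insensitive cells Cirbp averaged 3.74 ± 3.68 and Rbm3 2.91 ± 2.46 (n = 42).

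The sensitive minus insensitive difference of these means was -1.69 for Cirbp and -1.42 for Rbm3, each smaller than the SD over cells. Both genes passed a difference of 1, and so did many others. With DESeq2 size factors the call was lost for both genes (-0.99 for Cirbp and -0.60 for Rbm3). It was also lost after a straight-line adjustment for the number of genes read (-0.68 for Cirbp and -0.81 for Rbm3). Among 17 alternative settings, 14 kept it for Cirbp and 11 for Rbm3. Eligible genes were those detected in 25% or more of either group's cells and in no fewer than 3 of them, and of these 4218 genes 43.9% were lower by at least 1 in sensitive cells and 0.972% were higher. The median eligible gene differed by -0.89, so Cirbp lay -0.80 and Rbm3 -0.53 from it, and 12.8% of eligible genes lay below Cirbp and 22.7% below Rbm3. By share of detecting cells, Rbm3 differed by -30.6 percentage points, and 4.95% of eligible genes had a lower share difference. Cirbp differed by -22.6 percentage points, and 19.9% of eligible genes were lower. Rbm3 was eligible through the insensitive cells alone. Cirbp only just met the limit in sensitive cells (9 of 36, 25%), and 1 of these cells reached 10 CPM by 1 count. The ranks of both genes among eligible genes are therefore description only. Each title has a letter, a possible batch whose meaning the labels do not give; within letters the difference of means was -1.86 for Cirbp and -1.40 for Rbm3.

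Both levels moved with the number of genes read in a cell, which was lower in sensitive cells (median 3278.5) than in insensitive cells (median 3892.5). The Spearman correlation with that number over the 96 cells, which differ in depth, was 0.43 for Cirbp and 0.30 for Rbm3. In the third of the 78 classified cells with the most genes (4070 to 7210), Cirbp was detected in 5 of 8 sensitive cells (62.5%) and 11 of 18 insensitive cells (61.1%). Rbm3 in these cells was detected in 2 of 8 sensitive cells (25%) and 13 of 18 insensitive cells (72.2%). In the middle group, Cirbp was detected in 3 of 11 sensitive and 7 of 15 insensitive cells, and Rbm3 in 2 of 11 sensitive and 4 of 15 insensitive cells. In the group with the fewest genes, Cirbp was detected in 1 of 17 sensitive and 2 of 9 insensitive cells, and Rbm3 in 3 of 17 sensitive and 4 of 9 insensitive cells. These groups hold few cells, with 8 sensitive cells in the group with the most genes. The split was chosen after seeing the data, and the part of cell quality in the pooled differences was not tested. The median summed level of microglia markers was 2724 CPM in sensitive cells and 1507 CPM in insensitive cells. Of 9 eligible microglia markers, 1 was higher and 2 were lower by at least 1 in sensitive cells, with a median difference of -0.0090. Beside the median eligible gene at -0.89, 7 of the 9 lay above it. Neuron markers had a median summed level of 7854 CPM in sensitive cells and 10730 CPM in insensitive cells. The part of these markers was not tested either.

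**Figure D3:**
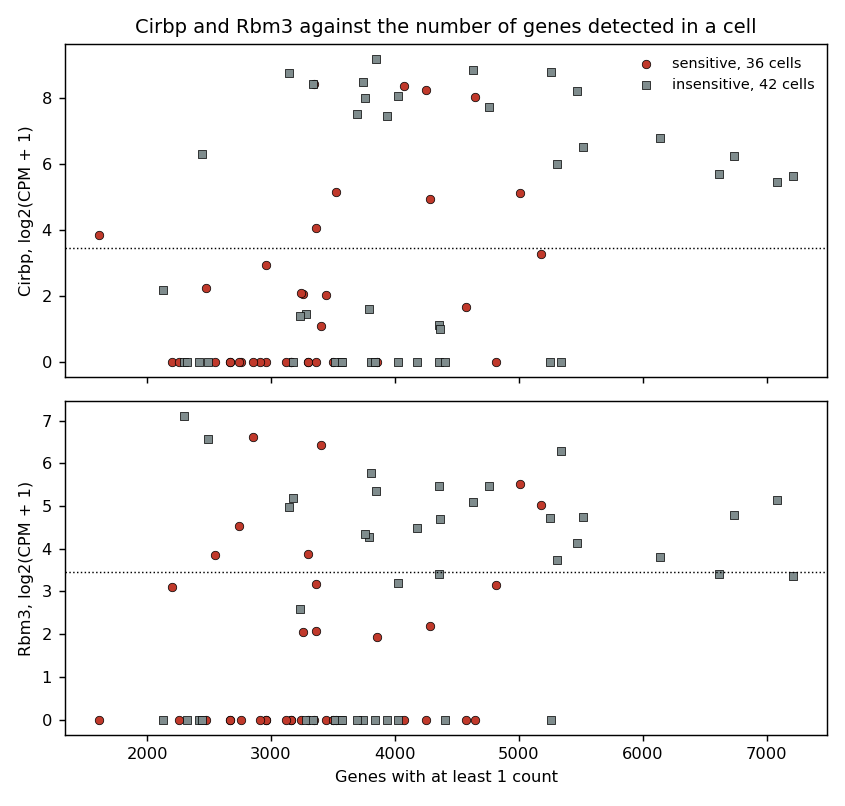
Cirbp (top) and Rbm3 (bottom) as log2(CPM + 1) against the number of genes with at least 1 count, for 36 sensitive cells (circles) and 42 insensitive cells (squares); the dotted line marks 10 CPM. At 4070 genes or more, 5 of 8 sensitive cells lie above the line for Cirbp but 2 of 8 for Rbm3, against 11 and 13 of 18 insensitive cells.

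Warm-sensitive cells had less of both genes than insensitive cells, in the direction of most genes. The difference of means of log2(CPM + 1) was -2.10 for Cirbp and -1.19 for Rbm3, both within 1 SD over cells and both past 1. Of 5088 eligible genes, 61.6% were lower by at least 1 in warm-sensitive cells and 1.71% were higher, and the median gene differed by -1.28. Relative to that gene, Cirbp stood at -0.82 and Rbm3, eligible through the insensitive cells alone, at 0.088. Cirbp met the limit in warm-sensitive cells too (6 of 21, 28.6%), but 1 of these cells reached 10 CPM by 1 count. Within title letters the difference was -1.33 for Cirbp and -1.797 for Rbm3. With DESeq2 size factors, which put the median gene at -0.47, the difference was -1.11 for Cirbp and -0.23 for Rbm3. After a straight-line adjustment for the number of genes read, added after seeing the data, it was -0.43 for Cirbp and -0.18 for Rbm3. Rn45s took a median of 67.7% of counts in warm-sensitive cells and 45.4% in insensitive cells. Of the 12 neuron markers, 9 were lower by at least 1 in warm-sensitive cells, with a median difference of -1.62. Summed microglia markers had a median of 3091 CPM in warm-sensitive cells (15.6 to 16810 CPM) and 959.6 CPM in insensitive cells (6.19 to 31076 CPM). Among 9 eligible microglia markers, 2 were higher and 2 lower by at least 1, with a median difference of -0.24. Of the 9, 8 lay above the median gene at -1.28. Of 3 eligible oligodendrocyte markers, 2 were higher and 1 was lower by at least 1 in warm-sensitive cells. Summed over the whole oligodendrocyte list, the median was 54.9 CPM in warm-sensitive cells (0 to 15964 CPM) and 162 CPM in insensitive cells (0 to 2520 CPM). The part of these in the differences was not tested.

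Cold-sensitive cells, of which there were only 5, gave no call for either gene against insensitive cells. Cirbp differed by -0.99 and Rbm3 by 0.41, beside 35.8% of 5116 eligible genes lower by at least 1 in cold-sensitive cells, 17.8% higher and a median gene at -0.45. Within title letters these were -0.67 for Cirbp and 0.62 for Rbm3. The values turned on single cells: leaving out cold-sensitive cell 2, which had 0 Cirbp counts, gave -0.17 for Cirbp, and leaving out cold-sensitive cell 5, at 260 CPM, gave -2.17. For Rbm3, leaving out cold-sensitive cell 1, at 44.9 CPM, gave -0.19, and leaving out cell 5, at 0 CPM, gave 1.19. Summed microglia markers had a median of 7366 CPM in the cold-sensitive cells (30.6 to 23222 CPM) and 959.6 CPM in the insensitive cells (6.19 to 31076 CPM), and all 9 eligible genes of that list were higher by at least 1 in cold-sensitive cells. Summed oligodendrocyte markers had a median of 1132 CPM in cold-sensitive cells (110.6 to 3159 CPM) and 162 CPM in insensitive cells (0 to 2520 CPM), and 2 of 3 eligible genes were higher by at least 1 in cold-sensitive cells. The part of either in these values was not tested.

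Warm-sensitive and cold-sensitive cells could not be ordered for Cirbp. The warm-sensitive minus cold-sensitive difference was -1.11 for Cirbp. Of the 2614 eligible genes, 57.6% were lower by at least 1 and 10.8% higher, and the median gene differed by -1.35. Cirbp was eligible through the warm-sensitive cells alone (6 of 21, 28.6%), of which 1 reached 10 CPM by 1 count. Without cold-sensitive cell 5 the Cirbp difference was 0.075, over summed counts it was 0.44, and within title letters it was -0.80. For Rbm3 it was -1.60, lower with any 1 cell left out (-2.38 to -0.99), and -0.94 within title letters, but Rbm3 was in too few cells of either class to be eligible. The median summed microglia level was 3091 CPM in warm-sensitive and 7366 CPM in cold-sensitive cells, and that of oligodendrocyte markers 54.9 CPM in warm-sensitive and 1132 CPM in cold-sensitive cells. Their part was not tested.

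Silent sensitive cells reached 10 CPM of either gene less often than silent insensitive cells. Both genes were detected in 1 of 10 silent sensitive cells, against 7 of 18 silent insensitive cells for Cirbp and 11 of 18 for Rbm3. At 1 count or more, the gap in Cirbp nearly closed, with 40% of silent sensitive and 44.4% of silent insensitive cells, and Rbm3 was found in 20% of silent sensitive and 61.1% of silent insensitive cells. The silent sensitive minus silent insensitive difference of means was -1.87 for Cirbp, beside SDs over cells of 1.72 in silent sensitive and 3.73 in silent insensitive cells. For Rbm3 it was -2.57, beside SDs of 1.34 in silent sensitive and 2.73 in silent insensitive cells.

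Of 3980 eligible genes, 38.8% were lower by at least 1 in silent sensitive cells and 13.6% were higher, and the median gene differed by -0.59. Rbm3 lay -1.98 from the median gene, with 202 genes (5.08%) below it, and Cirbp -1.28, with 15.4% below it. In the share of detecting cells, Rbm3 was lower by 51.1 percentage points in silent sensitive cells, and 17 eligible genes (0.427%) had a lower share difference. Both Rbm3 and Cirbp were eligible through the silent insensitive cells alone, which favours a lower value in silent sensitive cells. Their ranks among eligible genes are therefore description only. Within title letters the difference was -1.86 for Rbm3 and -1.08 for Cirbp. Leaving out any 1 cell kept the difference between -2.93 and -2.34 for Rbm3 and between -2.29 and -1.53 for Cirbp. The median number of genes read was 3230 in silent sensitive and 3668.5 in silent insensitive cells, and after adjustment for it the difference was -2.29 for Rbm3 and -1.41 for Cirbp. Summed microglia markers had a median of 1819 CPM in silent sensitive cells (16.6 to 53129 CPM) and 3052 CPM in silent insensitive cells (11.6 to 29682 CPM). Summed oligodendrocyte markers had a median of 337 CPM in silent sensitive cells (1.59 to 5225 CPM) and 386 CPM in silent insensitive cells (1.66 to 6354 CPM), with Mog at 0 in the silent sensitive cells. The part of this RNA in the difference was not tested.

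Silent cells as a whole did not stand apart from the other classified cells by a difference of 1. Cirbp was detected in 8 of 28 silent cells (28.6%) and 21 of 50 other cells (42%), and Rbm3 in 12 of 28 silent cells (42.9%) and 16 of 50 other cells (32%). The difference of means was -0.93 for Cirbp and 0.0073 for Rbm3, beside 17.6% of 3996 eligible genes lower by at least 1 in silent cells and 5.63% higher. Within title letters it was -0.67 for Cirbp and -0.30 for Rbm3. The near-zero value for Rbm3 joins the class with the highest share, silent insensitive, to one with the lowest, silent sensitive.

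**Figure D4:**
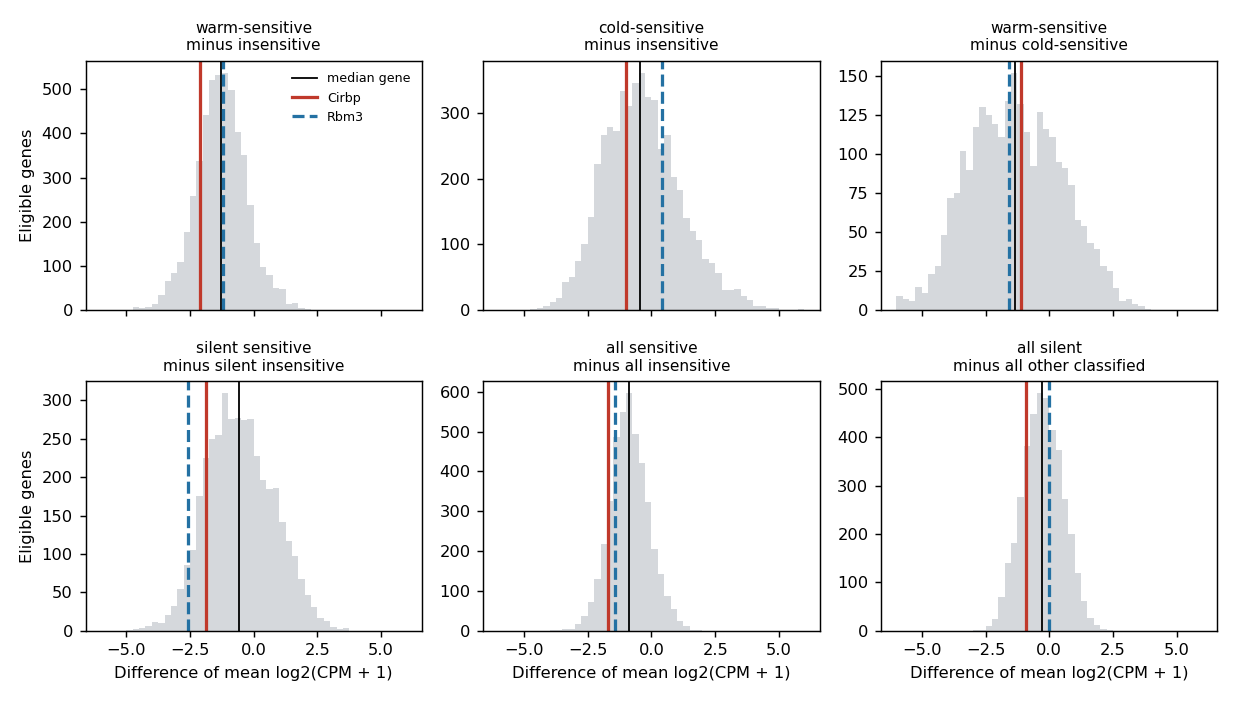
Distribution over eligible genes of the difference of mean log2(CPM + 1) in each comparison, with the median gene (black), Cirbp (red, solid) and Rbm3 (blue, dashed). The median gene lies below 0 in every panel; Rbm3 lies at -2.57 in the silent sensitive minus silent insensitive panel, where the median gene lies at -0.59, and at -1.19 beside a median gene at -1.28 in the warm-sensitive minus insensitive panel.

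The 2 genes did not vary together from cell to cell. Over the 96 cells their Spearman correlation was -0.011, and it ran from -0.32 to 0.42 within sets of 12 cells whose titles carry the same letter. Both were detected in 14 cells, Cirbp alone in 23, Rbm3 alone in 20 and neither in 39, and the product of their shares would give 13.1 cells with both. Among sensitive cells, 1 of 36 had both (2.78%) and 21 had neither (58.3%). Among insensitive cells, 11 of 42 had both (26.2%) and 12 had neither (28.6%).

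The number of cells with both genes in a class was close to the product of the class's separate shares in most classes, and furthest from it in silent insensitive cells (6 against 4.28). That product gives 1.14 of the warm-sensitive, 0.80 of the cold-sensitive and 5.42 of the insensitive cells, and 0.10 of the silent sensitive and 4.28 of the silent insensitive cells. Both were found in 0 of 21 warm-sensitive cells, in 1 of 5 cold-sensitive and in 5 of 24 insensitive cells. By an approximate limit, 3 divided by the number of cells and not the exact interval used above, 0 of 21 allows a share of up to 14.3%. Both genes were found in 0 of 10 silent sensitive cells, which by the same approximate limit allows up to 30%, and in 6 of 18 silent insensitive cells. Of the 7 silent insensitive cells with Cirbp, 6 thus also had Rbm3. Among insensitive cells, the 5 at 42.8 to 75 CPM of Cirbp all had counts of Rbm3 (8 to 35), and the 6 at 175 to 445 CPM of Cirbp had none. The 5 had 5305 to 7210 genes read and the 6 had 3336 to 5259, and the 2 cells highest in Cirbp, at 465 and 584 CPM, had 26 and 46 counts of Rbm3.

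**Figure D5:**
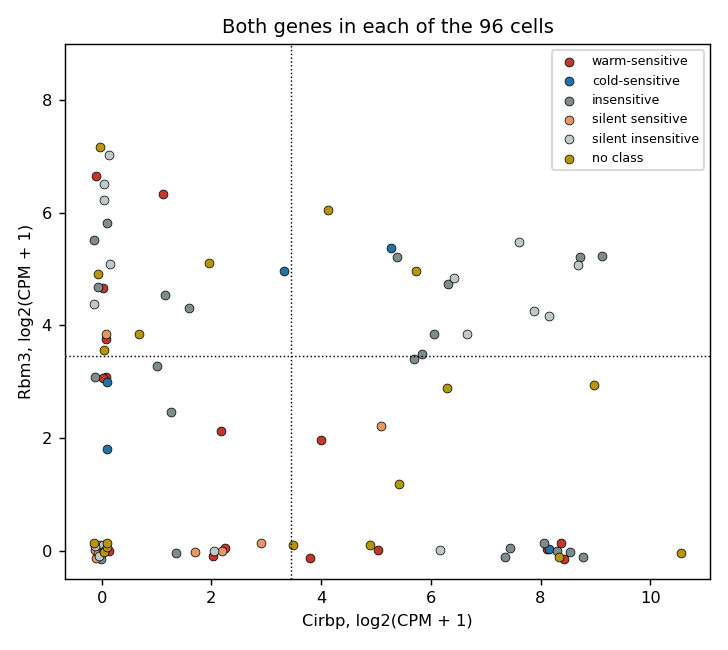
Rbm3 against Cirbp as log2(CPM + 1) in each of the 96 cells, coloured by class, with each point moved slightly at random so that cells at 0 can be seen; dotted lines mark 10 CPM. The upper right field holds 14 cells, 11 of them insensitive or silent insensitive, and no warm-sensitive or silent sensitive cell lies in it.

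Among 1063 genes detected in 50% or more of the 96 cells, those most like Cirbp over cells were Klhdc2 (Spearman 0.45), Ptges3, a co-chaperone of Hsp90 (0.45), the glycolytic enzyme gene Aldoa (0.43), the kinase gene Pak3 (0.43) and Pacsin1, which acts in synaptic vesicle endocytosis (0.40). Among those least like it were the noncoding RNA gene Gas5 (-0.29) and the apolipoprotein gene Apoe (-0.21). For Rbm3 the most alike were the ubiquitin ligase gene Trim37 (0.41), the ATP synthase subunit gene Atp5d (0.35), Ssb, which encodes the La RNA binding protein (0.34), Cd164 (0.34) and the chaperonin subunit gene Cct2 (0.33). The least alike were Pcsk1n (-0.20), Calm3 (-0.19) and Syt1 (-0.19). The median over the 1063 genes was 0.16 with Cirbp and 0.079 with Rbm3. All of these correlations are weak, and the cells share the differences in depth and in genes read given above.

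Genes related to the 2 by function were set beside them in the pooled comparison of sensitive and insensitive cells, where 43.9% of eligible genes were lower by at least 1 and the median gene differed by -0.89. Of 15 glycine-rich and related splicing regulators, 10 were eligible, 4 were lower by at least 1 in sensitive cells and 0 higher, with a median of -0.83. Rbmxl1, which like Rbm3 encodes a protein with an RNA recognition motif, differed by -1.60, and Ewsr1, at the other end, by 0.47. Of 12 SR proteins and CLK kinases, which carry temperature-dependent splicing, 10 were eligible and 3 lower, with a median of -0.76 (Srsf5 -1.61, Clk1 -0.14). Of 16 circadian clock genes, 10 were eligible and 5 lower, with a median of -1.02: Nr1d1, which encodes a clock repressor, differed by -2.29 and Rorb by 0.70.

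Of 16 heat-inducible chaperone and heat shock factor genes, 13 were eligible and 5 lower, with a median of -0.52: the small heat shock protein gene Hspb1 differed by 0.84, the inducible Hspa1b by 0.59 and Hsph1 by -1.56. Hspa1a, the near-identical copy of Hspa1b, differed by -0.59, and reads of this pair may be split between them in counting. Of 14 genes linked to Rbm3 and Cirbp in neuroprotection and stress granules, 10 were eligible and 4 lower, with a median of -0.78 (Txn1 -1.57, Tia1 -0.21). In the silent comparison, where Rbm3 differed by -2.57, the same lists had medians of -0.88, -0.96, -1.38, -0.79 and -0.055 in this order, beside a median gene at -0.59. In that comparison the extremes of the kinase list were Clk4 at -3.04 and Clk3 at 2.50, and those of the clock list were Nr1d2 at -1.88 and the receptor gene Rora at 2.58.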

How the data were processed

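Read counts were used as the authors deposited them, 1 whole number for each gene in each cell, with the class of each cell from the labels. The submitters' processing notes name mm10 as the build and FastQC, STAR and edgeR as tools, with no version; for the counting step and its annotation nothing is given in the sources used here. The deposited normalized signal values, which equal a cell's counts times a constant of unstated origin, served as an alternative only. Rn45s was left out of the totals because its share differed between classes. CPM, log2(CPM + 1), shares at 10 CPM and their exact intervals were computed per cell, and a difference of at least 1 among eligible genes was taken as called. No model test was run. The 2 genes, the gene lists and the comparisons were chosen with earlier results of these data known. Named list genes are among the highest and lowest eligible members of a list, and like genes are drawn from the 5 most and 3 least correlated; 1 gene is not reported here and was left out of its marker list. Alternatives were other totals (TMM library sizes from edgeR, DESeq2 size factors), pseudocounts of 0.1 and 10 CPM, limits on cells, thinning to 100000 counts, summed counts, medians, title letters and numbers, and leaving out each cell. The 18 cells without a class entered no comparison. No 2 cells held like values; the highest correlation between cells was 0.580. The scripts were tested on simulated data. Python 3.11.15 was used with pandas 2.3.3, numpy 2.4.6, scipy 1.17.1 and matplotlib 3.10.9, and DESeq2 1.42.0 and edgeR 4.0.16 in R 4.3.3.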

Additional observations from a re-analysis of the deposited data

Results flagged for a closer look

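The highest level of each gene in the series was found in a cell with no class, outside every comparison. Cirbp stood at 1506 CPM, from 1236 counts, in a cell with 0 counts of Rbm3 and 3139 genes read, against 584 CPM in the highest cell of the pooled insensitive classes. Rbm3 stood at 142 CPM, from 29 counts, in a cell with 0 counts of Cirbp and 2294 genes read, against 136 CPM in the highest cell of those classes. Over the 18 cells with no class, Cirbp ran from 0 through a median of 6.06 CPM and Rbm3 from 0 through a median of 4.10 CPM to these values, and 8 cells detected Cirbp and 6 Rbm3. Of the 18, 8 carry the title letter H, and in the 12 cells of that letter Cirbp was detected in 5 and Rbm3 in 1.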

How the results depend on the processing

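Of 17 alternative settings for each difference, Cirbp stayed past 1 in the same direction in 15 for warm-sensitive against insensitive cells, 7 for warm-sensitive against cold-sensitive, 16 for silent sensitive against silent insensitive and 14 for sensitive against insensitive cells. Rbm3 did so in 9 for warm-sensitive against insensitive cells, 17 for silent sensitive against silent insensitive and 11 for sensitive against insensitive cells. For Cirbp in warm-sensitive against insensitive cells, the difference of medians was -5.55. For Cirbp in warm-sensitive against cold-sensitive cells, the difference was 0.24 relative to the median gene, 0.44 over summed counts and 0.12 after adjustment for genes read, and with 1 cell left out it ran from -1.93 to 0.075. For Cirbp in silent sensitive against silent insensitive cells the difference of medians was 0, since both medians are 0. For Rbm3 in warm-sensitive against insensitive cells, the value relative to the median gene was 0.088, and over summed counts it was -0.36. The Rbm3 difference in cold-sensitive against insensitive cells turned to -0.18 after thinning and to -0.27 by medians. In the silent comparison, no setting brought Rbm3 above -1.20, and Cirbp within title letters was -1.08. No paired analysis was possible because the labels name no animal, slice or day that cells of different classes share. The cause of these changes was not tested. A class of 5 or 10 cells limits each share, and in the shallowest cell a level below 13.6 CPM cannot be read.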
